A study of Mus musculus with 6 samples.

Results

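Genes of 10 inflammation-induced plasma proteins were taken from the count table of livers of p62+/+ and p62S351E/+ mice by their symbols: Saa1, Saa2, Saa3, Orm1, Orm2, Hp, Hpx, Lcn2, Apcs and Crp. All 10 symbols were found among the 24411 in the table. Livers of 3 p62+/+ animals and 3 p62S351E/+ mice were sequenced at postnatal day 19. The p62S351E/+ mice carried 1 allele of Sqstm1, the gene of the autophagy receptor p62, in which Ser351 was replaced by Glu to mimic its phosphorylation, and 1 wild-type allele. The change was made by prime editing in RENKA4, an embryonic stem cell line of C57BL/6N origin, and passed on by a single male chimera through in vitro fertilization, so the p62S351E/+ mice go back to 1 founder. The p62+/+ mice carried 2 wild-type alleles. The labels give no treatment, sex or batch for either genotype, and neither genotype was given an inflammatory stimulus that the labels or methods name. Each library is labelled as a separate mouse.

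Acute-phase proteins are plasma proteins, made mainly by hepatocytes, whose amounts in blood move during infection or tissue injury. Interleukin-6 acts through its receptor, JAK kinases and STAT3, interleukin-1 and TNF act through NF-kB, and C/EBP factors act with both on the promoters of these genes. Serum amyloid A1 and A2 are the strongly inducible forms in mouse liver and travel in blood on high-density lipoprotein, whereas Saa3 is made mostly outside hepatocytes. Orm1 and Orm2 encode alpha-1-acid glycoproteins, which bind drugs and other small molecules. Haptoglobin (Hp) binds free haemoglobin and hemopexin (Hpx) binds free haem. Lipocalin-2 (Lcn2) binds bacterial iron carriers. Serum amyloid P (Apcs) and C-reactive protein (Crp) are pentraxins, and in mice the first of them is the more inducible.

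Several members are close copies of each other, which matters for how reads were assigned. On chromosome 7 of GRCm38, Saa3 (46711998 to 46715700), Saa1 (46740497 to 46742980) and Saa2 (46751790 to 46754313) lie within 42.3 kb together with Saa4 (46727998 to 46732603). On chromosome 4, Orm1 (63344560 to 63348163) and Orm2 (63362449 to 63365878) lie within 21.3 kb with Orm3 between them (63356162 to 63359511). The other members are at Crp, chromosome 1 from 172698055 to 172833031, Apcs, chromosome 1 from 172893961 to 172895041, Lcn2, chromosome 2 from 32384633 to 32388252, Hpx, chromosome 7 from 105591613 to 105600137, and Hp, chromosome 8 from 109575128 to 109579172 (GENCODE, GRCm38). The coding sequences of Saa1 and Saa2 had 348 of 366 bases in common (95.1%), and those of Orm1 and Orm2 558 of 621 (89.9%). Their first 180 coding bases, in GRCm38 transcripts, are printed here to show where reads could tell the copies apart, with capitals marking bases of the second gene that differ from the first. There are 11 such bases in Saa2 and 22 in Orm2.
Saa1: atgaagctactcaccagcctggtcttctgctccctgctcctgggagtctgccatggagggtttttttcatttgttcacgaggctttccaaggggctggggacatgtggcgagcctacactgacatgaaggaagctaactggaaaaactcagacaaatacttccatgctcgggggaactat
Saa2: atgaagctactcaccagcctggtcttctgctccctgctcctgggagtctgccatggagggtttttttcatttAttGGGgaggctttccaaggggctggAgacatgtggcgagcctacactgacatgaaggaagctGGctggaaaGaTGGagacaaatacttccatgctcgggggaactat
Orm1: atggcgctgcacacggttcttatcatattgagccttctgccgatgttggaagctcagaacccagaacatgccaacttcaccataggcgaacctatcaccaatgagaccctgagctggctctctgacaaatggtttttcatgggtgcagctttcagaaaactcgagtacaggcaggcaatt
Orm2: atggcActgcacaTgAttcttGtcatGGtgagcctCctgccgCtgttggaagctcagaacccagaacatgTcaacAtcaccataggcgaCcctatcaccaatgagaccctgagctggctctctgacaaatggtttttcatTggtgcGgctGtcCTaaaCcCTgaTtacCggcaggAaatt

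Of the 535 possible stretches of 75 bases in the Saa1 transcript, the length of the reads, 25 (4.67%) also occurred in an annotated Saa2 transcript, and in the other direction 2 of 578 (0.346%). For Orm1, 97 of 701 (13.8%) also occurred in Orm2, and as many in the other direction. The counts of Saa1 and Saa2 were whole numbers in all 6 libraries, whereas those of Orm1 and Orm2 were not whole in 3 libraries, where reads had been divided between genes. The values of Orm1 and Orm2 taken singly are therefore less certain than their sum.

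The 250 bases before the start of the gene in RefSeq (GRCm38.p6) were available for 8 members, and Orm1 and Hp were not among them. RefSeq starts can differ from the GENCODE positions given above. The Lcn2 stretch lies wholly inside the GENCODE gene, and those of Saa2, Saa3, Hpx and Crp overlap theirs in part. Letters of 5 motifs were searched on both strands: C/EBP as TTGCNNAA, STAT3 as TTCNNNGAA, NRF2 as TGACNNNGC, and the NF-kB and HNF1 motifs. The C/EBP letters occurred in 6 of the 8 (Lcn2, Orm2, Saa1, Saa2, Saa3 and Hpx) and in 9.56% of 32851 promoters of the same length. The Saa1 and Saa2 promoters were 94.8% identical, so these 6 are not independent of each other. The STAT3 letters occurred in 1 (Apcs, against 7.02% of all promoters), the NRF2 letters in 1 (Hpx, against 10.2%), and the NF-kB and HNF1 letters in none of the 8 (4.11% and 0.371% of all). No match overlapped another, and a match of letters is a description, not a measured site. Of these 6, the promoters of 4 that are no near copies of each other are printed to show where the letters lie, with the matches in capitals, C/EBP in each and additionally NRF2, the rightmost capitals, in Hpx.
Lcn2 promoter, chr2:32387740-32387989, minus strand: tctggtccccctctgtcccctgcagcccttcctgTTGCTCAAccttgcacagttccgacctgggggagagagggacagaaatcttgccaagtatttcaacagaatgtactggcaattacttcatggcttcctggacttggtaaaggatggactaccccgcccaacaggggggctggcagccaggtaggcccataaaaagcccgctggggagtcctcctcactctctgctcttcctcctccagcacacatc
Saa1 promoter, chr7:46742981-46743230, minus strand: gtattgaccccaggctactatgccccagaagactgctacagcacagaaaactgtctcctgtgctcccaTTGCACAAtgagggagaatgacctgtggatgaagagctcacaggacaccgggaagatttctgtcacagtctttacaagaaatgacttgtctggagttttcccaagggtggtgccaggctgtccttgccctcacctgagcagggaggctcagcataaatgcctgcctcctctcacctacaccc
Orm2 promoter, chr4:63362199-63362448, plus strand: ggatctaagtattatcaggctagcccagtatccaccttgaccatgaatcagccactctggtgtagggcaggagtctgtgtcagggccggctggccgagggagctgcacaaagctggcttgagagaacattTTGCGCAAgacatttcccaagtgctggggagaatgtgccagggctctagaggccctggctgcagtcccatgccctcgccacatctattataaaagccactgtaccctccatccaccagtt
Hpx promoter, chr7:105600117-105600366, minus strand: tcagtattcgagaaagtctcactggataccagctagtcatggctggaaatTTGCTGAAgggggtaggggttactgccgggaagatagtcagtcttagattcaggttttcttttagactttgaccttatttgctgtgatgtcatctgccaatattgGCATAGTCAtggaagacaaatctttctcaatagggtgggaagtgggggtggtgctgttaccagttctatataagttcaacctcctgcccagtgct

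Total counts per library lay between 8696712 and 10341622, of which 134911 to 315436 fell outside Rn45s, Lars2 and Mir6236. Values are given as raw counts or as normalized counts, which are the raw counts divided by a library size scaled by edgeR's TMM method. Libraries of the same genotype differed by more than counting noise, and more so in p62S351E/+ mice. Summed counts of 10 brain markers were 2301 to 2707 in the p62+/+ libraries and 2468 in p62S351E/+ mouse 3, but 21 and 32 in p62S351E/+ mice 1 and 2. Counts of Xist, an RNA of the inactive X chromosome, were 70.8, 1505 and 1071 in p62+/+ livers and 1, 0 and 1537 in p62S351E/+ livers. All 9 hepatocyte markers, such as Cps1 and Hnf4a, were detected in every library. Their summed normalized counts were 4886, 4670.04 and 4457 in p62+/+ livers and 8123, 10067.5 and 6299 in p62S351E/+ livers. Mouse 2 of the p62S351E/+ group was the highest library for 9 of these 9. Markers of neutrophils, which also make Lcn2, summed to 2 to 4 counts in p62+/+ and 3 to 7 counts in p62S351E/+ libraries, with Ngp, Camp, Mmp8 and Retnlg, 4 of the 10, at 0 everywhere. As normalized counts these sums were 2.41, 3.11 and 1.73 against 5.71, 5.04 and 5.42, without overlap, from at most 7 counts a library. In bulk liver RNA, fewer cells of a type and less RNA per cell cannot be told apart, and the part of any of these differences in the values that follow was not tested.

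With TMM scaling, Hp and Lcn2 were higher in each p62S351E/+ mouse than in any p62+/+ mouse, and 1 mouse of the p62S351E/+ group, mouse 2, had the highest normalized count of all 10 genes. No tested member passed the test between genotypes. Taking the tested members as a list, none was called, a call requiring an adjusted p below 0.05 and a log2 fold change beyond 1 in either direction. That is 0 of 5 higher and 0 of 5 lower, where 0.841% of the 5945 tested genes were called higher, 0.0841% lower and 0.925% in either direction (edgeR). DESeq2 and limma-voom also called 0 members, where DESeq2 called 3.14% of the genes it gave an adjusted p higher. At an unadjusted p below 0.05 there were 2 of 5 (Orm1 and Hp), against 14.6% of all tested genes. Their log2 fold changes ran from -0.06 for Apcs to 1.42 for Orm1 with a median of 0.43, while the median over all tested genes was -0.03. Over all 10 members, the normalized counts of the genotypes did not overlap for 2 (Hp and Lcn2, both higher) and for 0 in the other direction. Lcn2 was not among the tested genes, so 1 of 5 tested members (Hp) was higher without overlap. The shares of all tested genes were 12.0% higher and 14.7% lower, 26.7% in all.

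The members with the most counts were the 2 scavengers, Hp and Hpx, which held 82.3 to 85.4% of all member counts in each library. Hp had 349.9, 323 and 311 normalized counts in p62+/+ livers and 457, 1221 and 389 in p62S351E/+ livers. All 3 p62S351E/+ mice were above all 3 p62+/+ mice, and mouse 2 stood far above the other 2. The means were 328 ± 20.0 and 689 ± 462 normalized counts (SD, n = 3 each), and the log2 fold change of 1.07 ± 0.42 (SE) did not pass the test (adjusted p = 0.310, edgeR's quasi-likelihood test with Benjamini-Hochberg adjustment). An exact two-sided permutation test gave p = 0.1, the smallest value that 3 mice against 3 allow. Without mouse 2, the log2 fold change was 0.37 (adjusted p = 0.532, edgeR).

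Hpx had 464, 409.9 and 457 normalized counts in p62+/+ livers and 491, 876 and 297 in p62S351E/+ livers. The p62S351E/+ mice thus lay on both sides of the p62+/+ range, with mouse 2 at the top and mouse 3 at the bottom of all 6. The means of 444 ± 29.4 and 555 ± 294 normalized counts (SD, n = 3 each) gave a log2 fold change of 0.32 ± 0.36 (SE, adjusted p = 0.664, edgeR). The sign of this change turned without mouse 2, to -0.16.

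Because both scavengers are counted in the same library, their ratio does not depend on any scaling. This ratio was chosen after the values had been seen. There were 0.754, 0.788 and 0.681 Hp counts per Hpx count in p62+/+ livers and 0.930, 1.39 and 1.31 in p62S351E/+ livers. The ratio was above the p62+/+ range in all 3 p62S351E/+ mice. The means were 0.741 ± 0.0549 and 1.21 ± 0.247 (SD, n = 3 each; exact two-sided permutation p = 0.1, the smallest possible). Because the ratio was chosen from its values, this p describes the separation and does not test it. A ratio of this kind describes an unequal difference of the 2 genes, not which of them moved.

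**Figure D1:**
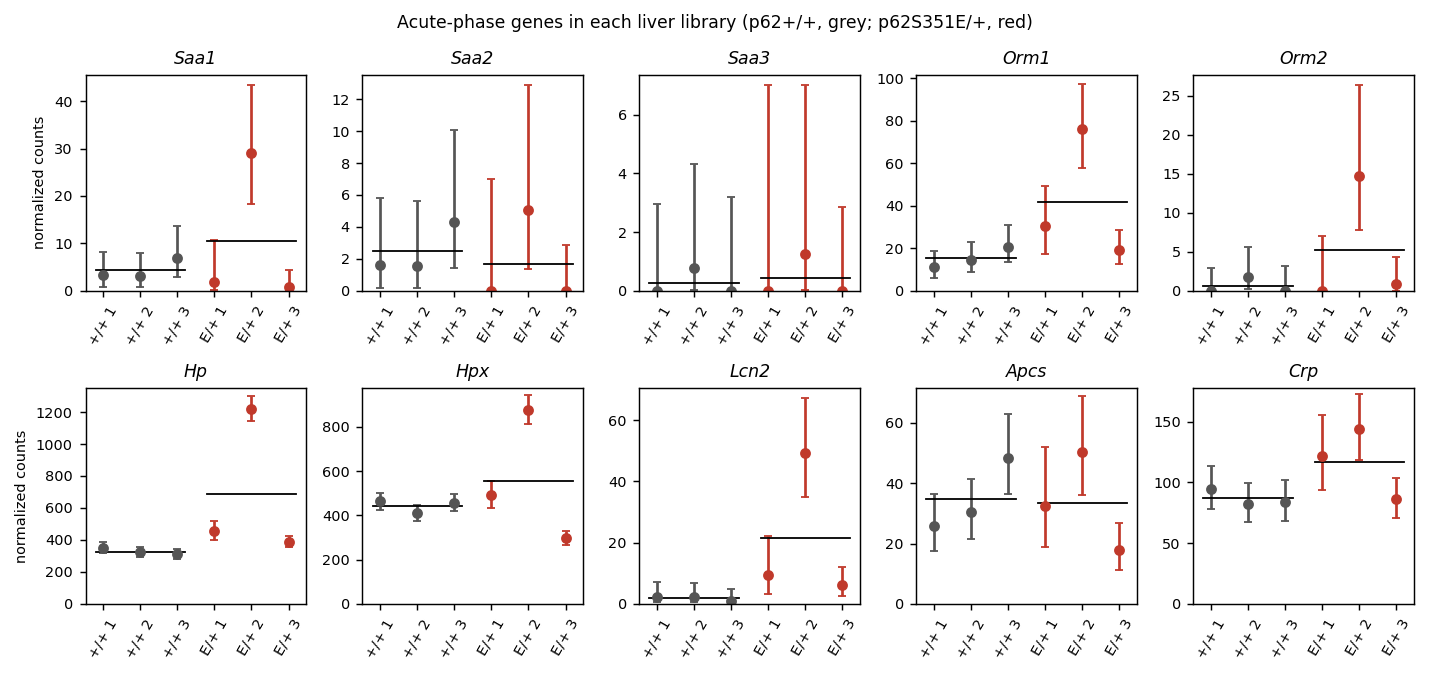
Normalized counts of the 10 members in each library, one panel per gene, with p62+/+ mice in grey and p62S351E/+ mice in red. Bars are exact Poisson 95% intervals of the count, which cover counting error only, and horizontal lines are group means; p62S351E/+ mouse 2 is the highest point in all 10 panels, with bars that overlap those of the next library in Saa2, Saa3, Apcs and Crp.

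Among the ligand carriers, Orm1 had 11.2, 14.5 and 20.7 normalized counts in p62+/+ livers and 30.5, 76.0 and 19.3 in p62S351E/+ livers. Mice 1 and 2 of the p62S351E/+ group were above all p62+/+ mice, and mouse 3 lay within their range. The log2 fold change was 1.42 ± 0.51 (SE), from means of 15.5 ± 4.82 and 41.9 ± 30.1 normalized counts (SD, n = 3 each), and did not pass the test (adjusted p = 0.286, edgeR). Without mouse 2 it was 0.66 (adjusted p = 0.584, edgeR). Orm2 had raw counts of 0, 2.33 and 0 in p62+/+ livers and 0, 11.64 and 1.08 in p62S351E/+ livers, so that nearly all of its p62S351E/+ counts came from mouse 2. Adding Orm1, Orm2 and Orm3 avoided the division of reads among copies and gave 11.2, 17.1 and 20.7 normalized counts in p62+/+ livers and 34.3, 94.5 and 20.9 in p62S351E/+ livers. The groups of this sum did not overlap, but mouse 3 was above the highest p62+/+ mouse by less than 1 normalized count. The log2 fold change of the sum was 1.60 ± 0.57 (SE, adjusted p = 0.289, edgeR).

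Orm1 was the only tested member whose values spanned at least 2 log2 units over the 6 libraries. The tested genes with the most similar profile, by the root mean square difference of centred log2 values over 6 libraries, were Fmo5 (0.247), Galm (0.259) and Msra (0.268). Fmo5 had 73.8, 98.6 and 112 normalized counts in p62+/+ livers and 137, 304 and 107 in p62S351E/+ livers, with mouse 2 again the highest.

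Of the iron and haem group, Lcn2 was low in counts, and its genotypes did not overlap. Its raw counts were 3, 3 and 1 in p62+/+ livers and 5, 39 and 8 in p62S351E/+ livers, and its normalized counts were 2.41, 2.33 and 0.864 against 9.52, 49.1 and 6.20. All 3 p62S351E/+ mice were above all 3 p62+/+ mice, and mouse 2 was 6.25-fold above the mean of the other 2. Exact Poisson 95% intervals of single counts were wide: 27.7 to 53.3 for the 39 counts, 3.45 to 15.8 for the 8 counts and 0.619 to 8.77 for a count of 3. Summed over mice, 52 counts against 7 corresponded to a normalized ratio of 10.5 (exact 95% interval 4.75 to 27.4). Without mouse 2, 13 counts against 7 gave a ratio of 3.78 (1.40 to 11.2), where both intervals cover counting error and not the spread between mice. The summed neutrophil markers were higher without overlap as well, from few counts (3, 4 and 7 in p62S351E/+ mice 1, 2 and 3). Their part in the Lcn2 difference was not tested. Lcn2 did not pass the filter on low counts. When no filter was applied, its log2 fold change was 3.40 ± 0.82 (SE, unadjusted p = 0.00229) and the adjusted p of 0.168 (edgeR) missed the threshold. Leaving out each mouse in turn gave adjusted p-values from 0.000752 without p62S351E/+ mouse 3 to 0.626 without p62+/+ mouse 3, and 0.518 (log2 fold change 1.90) without p62S351E/+ mouse 2. DESeq2 gave a log2 fold change of 3.50 (unadjusted p = 0.000554) but no adjusted p, because its own filter set the gene aside.

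The serum amyloid A genes had few counts in livers of either genotype. Saa1 had raw counts of 4, 4 and 8 in p62+/+ livers and 1, 23 and 1 in p62S351E/+ livers. The 23 counts in mouse 2 have an exact Poisson 95% interval of 14.6 to 34.5, which lies above the counts of every other library, whereas the other 2 p62S351E/+ mice had fewer counts than any p62+/+ mouse. The normalized ratio of summed counts, 25 against 16, was 2.21 (exact 95% interval 1.13 to 4.43), and without mouse 2 it was 0.254 (0.0283 to 1.08). The direction of the Saa1 difference was thus set by 1 mouse, and without a filter edgeR gave an adjusted p of 0.733.
Saa2 had raw counts of 2, 2 and 5 in p62+/+ livers and 0, 4 and 0 in p62S351E/+ livers, with a ratio of 0.629 (0.141 to 2.25). The sum of Saa1 and Saa2, in which reads of the near copies cannot be exchanged, was 4.82, 4.66 and 11.2 normalized counts in the p62+/+ group against 1.90, 34.0 and 0.775 in the p62S351E/+ group. Saa3 had 1 count in 1 mouse of each genotype and 0 in the other 4, and a count of 0 has an exact 95% interval up to 3.69. No difference of Saa2 or Saa3 was detectable at this depth. Saa4, the constitutive member of the cluster, had 42.5, 49.7 and 23.3 normalized counts in p62+/+ livers and 15.2, 71.8 and 12.4 in p62S351E/+ livers. As for Saa1, mouse 2 was the highest of the 6 and the other 2 p62S351E/+ mice were below all p62+/+ mice. The log2 fold change of Saa4 was -0.22 ± 0.71 (SE, adjusted p = 0.902, edgeR).

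Neither of the pentraxins passed the test. Crp had 94.7, 82.3 and 83.8 normalized counts in p62+/+ livers and 122, 144 and 86.0 in p62S351E/+ livers. Mice 1 and 2 were above the p62+/+ range and mouse 3 was within it. Its means were 86.9 ± 6.78 and 117 ± 29.1 normalized counts (SD, n = 3 each), and edgeR gave a log2 fold change of 0.43 ± 0.24 (SE, adjusted p = 0.435). Apcs had 25.7, 30.3 and 48.4 normalized counts in p62+/+ livers and 32.4, 50.4 and 17.8 in p62S351E/+ livers. Mouse 1 was within the p62+/+ range, mouse 2 above it and mouse 3 below it. Its log2 fold change was -0.06 ± 0.40 (SE, adjusted p = 0.952, edgeR).

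Read per kilobase of transcript, the order of the mean normalized counts in p62+/+ mice was Hpx (296 ± 19.6), Hp (244 ± 14.9), Crp (51.3 ± 4.0), Apcs (35.8 ± 12.3) and Orm1 (20.0 ± 6.22; SD, n = 3 each). Next on the same scale were Saa1 (7.24 ± 3.56), Saa2 (3.82 ± 2.43), Lcn2 (2.04 ± 0.95), Orm2 (0.778 ± 1.35) and Saa3 (0.466 ± 0.808). Hpx and Hp did not overlap among p62+/+ mice, nor did Orm1 and Saa1, whereas neighbours from Crp to Orm1 and from Saa1 to Saa3 did. In p62S351E/+ mice the mean per-kilobase level of Hp (512 ± 343) was above that of Hpx (370 ± 196), and Lcn2 (23.6 ± 26.1) was above Saa1 (17.3 ± 26.2). These SDs are those of each gene between mice, not of the order of 2 genes within a library. Both orders held in each p62S351E/+ mouse and were the reverse in each p62+/+ mouse. Hp and Hpx were close in p62S351E/+ mouse 1, and Lcn2 and Saa1 had few counts.

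The values of the members differed between the 3 p62S351E/+ mice. Mouse 2 was the highest of the 6 libraries for all 10 members, of which 5 were tested, whereas it was the highest for 23.1% of the tested genes. It was also the highest for 9 of 9 hepatocyte markers. The same held for 12 of 14 tested genes of other positive and 7 of 8 of negative acute-phase proteins. For Saa2, Saa3, Apcs and Crp the counting intervals of mouse 2 and of the next library overlapped. The raw counts of Saa2 and Apcs were higher in p62+/+ mouse 3, and those of Crp in p62+/+ mouse 1, than in mouse 2. Mouse 1 was above all p62+/+ mice for 5 members and below them for 2, and mouse 3 was above for 2 and below for 4. The 2 below in mouse 1 were Saa1 (1 count) and Saa2 (0 counts). Both genes, at the same counts, were also among the 4 of mouse 3. Their counting intervals overlapped those of all p62+/+ mice, so these values do not show a departure. Hpx and Apcs were the others below in mouse 3, and only the Hpx interval lay below those of all p62+/+ mice. Shares of all tested genes above or below in this way are not given. Summed over the members, normalized counts were 953, 869 and 933 in p62+/+ livers and 1144, 2466 and 817 in p62S351E/+ livers. As a share of counts outside Rn45s, Lars2 and Mir6236, this was 0.334 to 0.445% in the other 5 libraries and 0.845% in p62S351E/+ mouse 2.

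**Figure D2:**
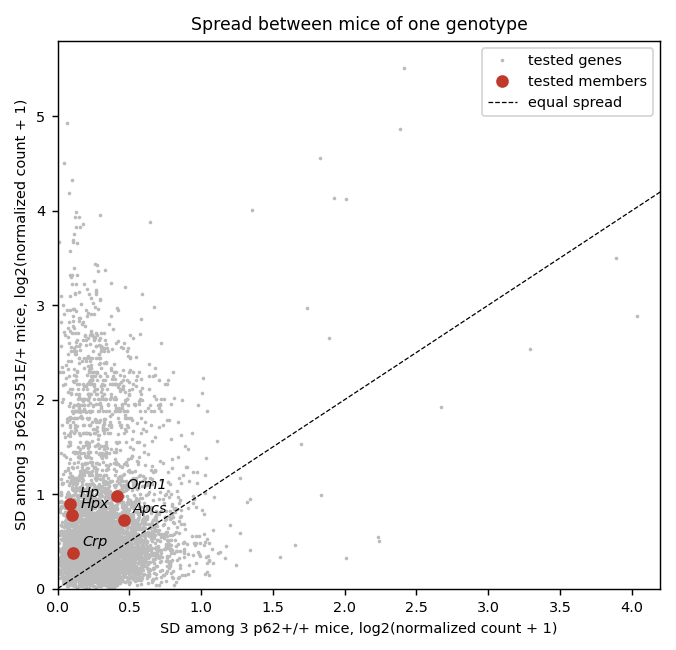
Standard deviation of log2(normalized count + 1) among the 3 p62+/+ mice (x axis) and among the 3 p62S351E/+ mice (y axis) for each tested gene (grey) and each tested member (red). All 5 members lie above the dashed line of equal spread, as do 73.5% of all tested genes.

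On the log2(normalized count + 1) scale, the SD among p62+/+ mice was 0.0868 for Hp, 0.0972 for Hpx and 0.109 for Crp, below the median of 0.268 over all tested genes. For Orm1 (0.416) and Apcs (0.461), with fewer counts, it was above that median. Among p62S351E/+ mice the SD was 0.981 for Orm1, 0.892 for Hp, 0.778 for Hpx and 0.727 for Apcs, all above the median of 0.463. Crp, at 0.375, was below it. The spread among p62S351E/+ mice exceeded that among p62+/+ mice for 5 of 5 tested members and for 73.5% of all tested genes. Pooled over both genotypes, the spread of Orm1 was at the 82.1 percentile of tested genes, that of Hp at 75.5, Apcs at 73.4, Hpx at 68.2 and Crp at 21.8.

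Other liver genes were read in the same way, from lists of genes known in the acute-phase response. Of 14 tested genes of other positive acute-phase proteins, 0 were called, 13 had a log2 fold change above 0 and the median was 0.50. Serpina3n, an inhibitor of serine proteases, had 80.2, 95.5 and 90.7 normalized counts in p62+/+ livers and 166, 207 and 120.1 in p62S351E/+ livers. Its groups did not overlap, and its log2 fold change was 0.88 ± 0.25 (SE, adjusted p = 0.170, edgeR). Fgl1, a fibrinogen-like protein, had a log2 fold change of 0.98 (adjusted p = 0.245, edgeR), and Hamp, which encodes the iron hormone hepcidin, one of -0.99 (adjusted p = 0.340, edgeR).

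Of 8 negative acute-phase genes, whose products fall in blood during inflammation, 0 were called either, 6 were above 0 and the median log2 fold change was 0.40. Alb, the gene of serum albumin, had 6237, 5728 and 6452 normalized counts in p62+/+ livers and 9713, 16389.5 and 6542 in p62S351E/+ livers, with mouse 2 again highest and all 3 above the p62+/+ mice. Its log2 fold change was 0.83 (adjusted p = 0.320, edgeR). Trf (0.81, adjusted p = 0.348, edgeR) and Rbp4 (0.69, adjusted p = 0.257, edgeR), which carry iron and retinol, differed by similar amounts. With TMM scaling both lists thus had medians above 0. The 9 hepatocyte markers had a median of 0.73 on the log2 scale, and 1 of them, Tdo2, was called higher (log2 fold change 1.76, adjusted p = 0.018, edgeR). It was not called with the brain-marker covariate, with hepatocyte-marker counts or library size alone as the scaling, or without any single p62+/+ mouse or p62S351E/+ mouse 1.

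**Figure D3:**
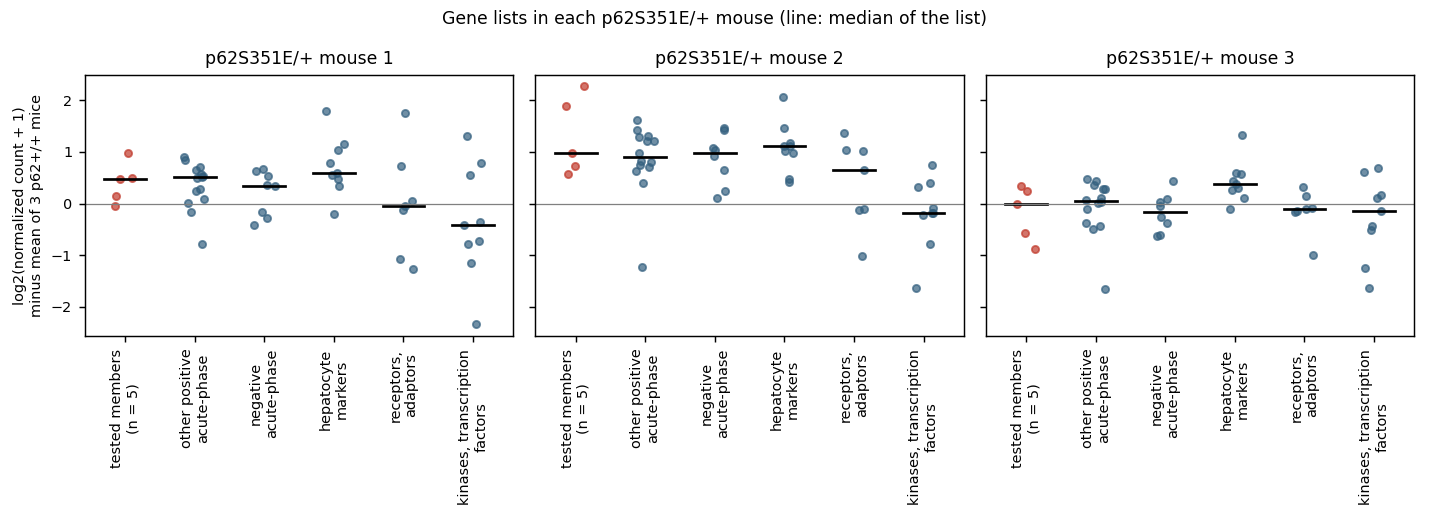
Difference of log2(normalized count + 1) from the mean of the 3 p62+/+ mice for the tested genes of 6 lists, one panel per p62S351E/+ mouse, with a line at each list's median. In mouse 2 the medians were 0.98 for the members, 0.90 for other positive and 0.98 for negative acute-phase genes and 1.10 for hepatocyte markers, and in mouse 3 the members' median was -0.01.

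Relative to the p62+/+ mean, the members' median log2 difference was 0.48 in mouse 1, 0.98 in mouse 2 and -0.01 in mouse 3. That of the hepatocyte markers was 0.59, 1.10 and 0.37, and that of the negative acute-phase genes 0.35, 0.98 and -0.16. The medians over all tested genes were -0.08, -0.06 and 0.03. The members and the hepatocyte markers thus stood in the same order over the 3 mice.

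Dividing by the summed hepatocyte-marker counts in place of the TMM library size gave values relative to those markers, an alternative chosen after the data had been seen. It lowered the median log2 fold change of all tested genes to -0.78, so changes have to be read against that value. Lcn2 then had 3.01, 3.05 and 1.19 counts in p62+/+ livers and 7.17, 29.9 and 6.02 in p62S351E/+ livers, still without overlap. Hp had 438, 423 and 427 against 344, 742 and 378, so its groups overlapped and only mouse 2 was above the p62+/+ mice. Hpx (581, 537 and 627 against 369.9, 532 and 289), Apcs (32.2, 39.7 and 66.4 against 24.4, 30.6 and 17.3) and Crp (118.6, 107.8 and 115 against 91.8, 87.3 and 83.5) were lower in all 3 p62S351E/+ mice.
In all, 1 of 10 members (Lcn2, not tested) was higher and 3, all of them tested, were lower without overlap, against 1.82% and 50.3% of all tested genes. Mouse 2 was the highest library for 5 members on this scale (Saa1, Orm1, Orm2, Hp and Lcn2). Per 1000 counts of Alb, Lcn2 had 0.386, 0.407 and 0.134 counts in p62+/+ livers and 0.980, 3.0 and 0.947 in p62S351E/+ livers, again without overlap. Hpx and Apcs were lower without overlap on the Alb scale, and the groups of Crp overlapped. The share of all tested genes without overlap on the Alb scale was not computed. Whether the groups overlapped for Hp and Apcs, and the directions of Hpx and Crp, thus depended on the scaling. For Lcn2 the p62S351E/+ mice were higher without overlap under all 3 (TMM, hepatocyte markers and Alb).

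**Figure D4:**
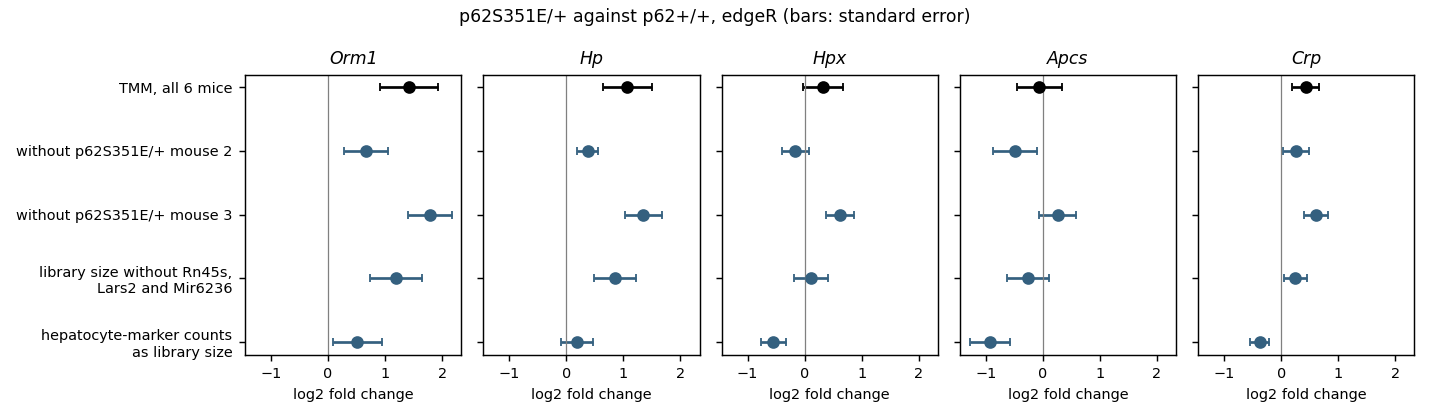
Log2 fold change of p62S351E/+ against p62+/+ mice for the 5 tested members (edgeR, bars are standard errors) with all 6 mice and with 4 other settings. Orm1 and Hp stay above 0 in all 5 settings, Hpx moves between -0.55 and 0.62, and Crp is below 0 with hepatocyte-marker counts as library size.

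The library of mouse 3 also mattered for the calls. Without it, Orm1 (log2 fold change 1.78, adjusted p = 0.00514, edgeR) and Hp (1.35, adjusted p = 0.0106, edgeR) were called higher, of the 5 members tested with all 6 mice. Many more of all genes were called in that fit as well, 329 higher and 976 lower among 6390 tested. With the summed brain markers as a covariate, the log2 fold changes were 0.33 for Orm1 and 0.27 for Hp (adjusted p = 0.992 for both, edgeR). With Xist as a covariate they were 0.82 for Orm1 (adjusted p = 0.638, edgeR) and 0.55 for Hp (adjusted p = 0.665, edgeR). Over all alternatives the adjusted p ran from 0.00514 to 0.992 for Orm1 and from 0.0106 to 0.992 for Hp. Without mouse 3 the remaining p62S351E/+ libraries are the 2 nearly without brain transcripts, and their Xist counts were 1 and 0. Genotype, brain transcripts and Xist thus cannot be told apart in that comparison.

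Upstream of the members, cytokine transcripts were hardly detected. Il6, Osm, Lif, Il11 and Il22 were listed at 0 counts in all 6 libraries, each count of 0 allowing up to 3 counts. Il1a had 3, 3.36 and 2 counts in p62+/+ livers and 1, 0 and 0 in p62S351E/+ livers. Il1b had 1 count in 1 p62+/+ mouse and Tnf at most 1 count in any mouse. Of 7 tested receptors and adaptors and 9 tested kinases and transcription factors, 0 were called, with median log2 fold changes of 0.15 and 0.05.
Lifr, a receptor subunit for LIF, had 384, 149.8 and 189 normalized counts in p62+/+ livers and 105, 109.6 and 111 in p62S351E/+ livers. All 3 p62S351E/+ mice were below all p62+/+ mice, among which mouse 1 stood apart, and the log2 fold change was -1.15 ± 0.34 (SE, adjusted p = 0.208, edgeR). Tnfrsf1a, a TNF receptor, had a log2 fold change of 1.17 (adjusted p = 0.353, edgeR) and Il1rap, a co-receptor for interleukin-1, one of 0.46 (adjusted p = 0.467, edgeR).
Stat3 had 36.1, 40.4 and 19 normalized counts in p62+/+ livers and 76.2, 51.7 and 46.5 in p62S351E/+ livers, all above the p62+/+ range (log2 fold change 0.86, adjusted p = 0.296, edgeR). Jak2 (-1.05, adjusted p = 0.322, edgeR) and Nfkb1 (-1.04, adjusted p = 0.363, edgeR) were lower without overlap and had at most 21 counts in any library. Of 7 feedback inhibitors and early targets, 2 had enough counts to be tested, Nfkbia (log2 fold change -0.26, adjusted p = 0.684, edgeR) and Junb (0.87, adjusted p = 0.531, edgeR). Socs3, which limits signalling by STAT3, had at most 6 counts in any library.

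Among receptors and partners of the member proteins, Lrp1, which takes up the complex of hemopexin and haem, had a log2 fold change of 0.11 (adjusted p = 0.831, edgeR). Hmox1, the enzyme that breaks down haem, had 8.83, 5.43 and 7.77 normalized counts in p62+/+ livers and 9.52, 12.6 and 18.6 in p62S351E/+ livers. The groups did not overlap, and the log2 fold change of 0.91 ± 0.39 (SE) did not pass the test (adjusted p = 0.338, edgeR). Slc22a17, a lipocalin-2 receptor, had 51.4, 53.6 and 44.0 normalized counts in the p62+/+ livers, against 1.90 (mouse 1), 0 (mouse 2) and 44.2 (mouse 3) in the p62S351E/+ livers and was thus, like the brain markers, nearly absent from mice 1 and 2 (log2 fold change -1.57, adjusted p = 0.586, edgeR). Cd163, the receptor for haptoglobin bound to haemoglobin, had at most 5 counts in any library, and Fpr2 was listed at 0 in all 6.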

How the data were processed

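Total liver RNA was extracted with an RNeasy kit, depleted of ribosomal RNA, and made into libraries with NEBNext Ultra II reagents. The libraries were read as 75-base single ends. Per the labels and the methods, the authors trimmed reads with Trim Galore, mapped them to mm10 with STAR and estimated counts with RSEM. They deposited expected counts per gene symbol, without normalization. Versions and the gene annotation are not given in the sources used here. Of nonzero values, 6.45% were not whole (tolerance 1e-06), and all were rounded for testing.

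The genotypes were compared with edgeR 4.0.16 in R 4.3.3: filterByExpr with a minimum count of 10, TMM scaling, and robust quasi-likelihood fits with legacy set to FALSE, without covariates. Benjamini-Hochberg adjustment took in all 5945 tested genes. A call required an adjusted p below 0.05 and a log2 fold change beyond 1 in either direction. DESeq2 1.42.0 and limma 3.58.1 served as alternatives. The fits were tested on simulated data with the same dispersion for all genes and log2 changes of 2 in either direction. There edgeR recovered 89.2% of the changed genes it tested, and 3.45% of its calls were false. The simulation held no split like that of brain transcripts or Xist and no unequal spread between genotypes. It therefore does not check the fits for these. Normalized counts are counts over the relative TMM library size (geometric mean of the 6 set to 1), and log2 levels used a pseudocount of 1. Intervals are exact at 95% and cover counting error only. P-values set the difference between genotypes against the spread between these mice. Counts outside Rn45s, Lars2 and Mir6236 (134911 to 315436 per library) set the precision.

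The members and gene lists were chosen with earlier results of these data known. Named were all 10 members, all cytokines, called genes and the 3 largest absolute log2 fold changes of each list, and the 3 tested genes most like each tested member that spanned 2 log2 units. Fmo5 alone of these is given per library. A further gene chosen in this way is not reported. Genes named outside this rule (Socs3, Cd163, Fpr2, Hnf4a, Ngp, Camp, Mmp8 and Retnlg) were chosen after their values were seen. Alternatives were other scalings, filters, tools, thresholds and covariates, the replicate number as a block, and leaving out mice. Gene positions and transcript lengths are those of GENCODE vM21 (GRCm38), the build of mm10. Sqstm1 itself differed by 0.30 ± 0.20 on the log2 scale (SE, adjusted p = 0.499, edgeR). A point mutation is not visible in counts, so this value does not check the genotype.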

Additional observations from a re-analysis of the deposited data

How the results depend on the processing

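With all 6 mice and TMM scaling, 50 genes were higher and 5 lower. For the higher genes, the number was 27 with Xist as a covariate, 28 with the summed brain markers as a covariate, 17 with hepatocyte-marker counts as library size (chosen after seeing the data), 12 with library size only, 131 with limma-voom, 79 without a filter and 18 at an adjusted p below 0.01. For the lower genes, it was 11 with DESeq2, 2 with Xist or the brain markers as a covariate, 29 with at least 10 counts in every library, 21 with hepatocyte-marker counts as library size, 8 with the legacy method, 2 with library size only, 12 with limma-voom, 10 without a filter, 1 at an adjusted p below 0.01 and 23 without p62S351E/+ mice 1 and 2. Leaving out 1 mouse each gave 16 to 329 higher and 1 to 976 lower genes. It gave 0 to 2 members higher, 0 to 4 other positive and 0 to 2 negative acute-phase genes higher, 0 to 1 receptors and adaptors higher and 0 to 1 lower, 0 to 1 kinases and transcription factors lower, and 0 to 1 receptors and partners of the member proteins lower. In the order named, these lists held 5, 14, 8, 7, 9 and 3 genes tested with all 6 mice. All of these calls within lists arose without p62S351E/+ mouse 3, where 329 of 6390 tested genes were called higher and 976 lower. In addition, 1 receptor was lower with at least 10 counts in every library, and 1 kinase or transcription factor was lower without p62S351E/+ mice 1 and 2. Without p62S351E/+ mice 1 and 2 the group has 1 library, so only the p62+/+ mice give the spread and that library is assumed to vary like them. The causes were not tested.

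The numbers shared by mice of both genotypes did not pair them: deviations of same-numbered mice correlated at 0.0713, -0.0853 and 0.000353. With the number as a replicate block, 18 genes were higher and 1 lower, and 0 members were called.

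Hpx turned negative with Xist as a covariate (log2 fold change -0.24), with the brain-marker covariate (-0.57), with hepatocyte-marker counts as library size (-0.55), with library size only (-0.45), without p62S351E/+ mouse 2 (-0.16) and without mice 1 and 2 (-0.56). Crp turned negative with the brain-marker covariate (-0.020), hepatocyte-marker counts (-0.38), library size only (-0.31) and without mice 1 and 2 (-0.0044). Apcs turned positive without p62S351E/+ mouse 3 (0.26) or without p62+/+ mouse 3 (0.26). With 1 mouse left out, Hpx ran from -0.16 to 0.62 and Apcs from -0.49 to 0.26. Orm1 (0.33 to 1.78) and Hp (0.19 to 1.35) stayed positive under every alternative run. Of the 5 tested members, 1 did not overlap between genotypes, against 0 with library size only and 3 with hepatocyte-marker counts. The median of all tested genes moved to -0.68 with library size only, -0.78 with hepatocyte-marker counts and -0.19 without Rn45s, Lars2 and Mir6236 in the library size. Depth limits Saa1, Saa2, Saa3, Orm2 and Lcn2, which had at most 39 counts in any library.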

Other observations

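Macrophage markers summed to 123, 100.9 and 124 normalized counts in p62+/+ livers and to 160.0, 160.0 and 123.9 in p62S351E/+ livers, and 0 of the 6 tested were called (log2 fold changes of 0.62 for C1qa, 0.58 for Cd5l and -0.55 for Clec4f). Marco, a scavenger receptor of macrophages named after its values were seen, did not pass the filter, with raw counts of 1, 1 and 3 against 12, 10 and 22. Without a filter its log2 fold change was 3.52 ± 0.55 (SE, adjusted p = 0.00579, edgeR), and the adjusted p ran from 0.00119 to 0.126 with 1 mouse left out. Erythroid markers summed to 176, 137 and 197 normalized counts and to 133, 116 and 58.5, and 0 of 4 tested were called (-1.81 for Hba-a1, 0.36 for its near copy Hba-a2 and 0.24 for Hbb-bt, among which reads could be divided). Of 5 adipocyte markers, 4 were at 0 in every library and the fifth had 1 count. Among brain markers, 0 of 9 tested were called with all 6 mice (log2 fold changes of -1.74 for Mbp and -1.61 for Nefl). After Tdo2, the largest log2 fold changes of hepatocyte markers were 1.10 for Apob (adjusted p = 0.121, edgeR) and 0.94 for Cps1 (adjusted p = 0.133, edgeR), neither called.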
